A study of Mus musculus with 10 samples.

Results

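The transcriptional coactivators YAP (Yap1) and TAZ (Wwtr1), their DNA-binding partner TEAD1 (Tead1), the target genes Amotl2 and Ankrd1, and 5 genes of the CCN family of matricellular proteins were followed in cultured mouse lung fibroblasts. The 10 genes were taken by symbol from the deposited count table, which lists 54532 genes and carries the CCN genes under their older symbols: Cyr61 is Ccn1, Ctgf is Ccn2, Nov is Ccn3, Wisp1 is Ccn4 and Wisp2 is Ccn5. All 10 passed the filter on low counts and were among the 14360 genes tested. The series compared 5 primary cultures labelled wild type (WT) with 5 labelled Mrc2 knockout (Mrc2 KO), all of lung fibroblasts at baseline in DMEM with 10% fetal bovine serum and antibiotics, with no stimulus added. Mrc2 encodes an endocytic receptor for collagen. The sources used here do not give the kind of Mrc2 allele, the strain, age and sex of the mice, or the passage and density of the cultures. The titles call the libraries biological replicates without naming animals, so the p-values measure the spread between these samples.

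YAP and TAZ carry signals of cell shape, matrix stiffness and cell density to the nucleus. When the Hippo kinases are inactive, both proteins enter the nucleus, bind TEAD factors and switch on genes such as Ctgf, Cyr61 and Ankrd1, while phosphorylation by LATS kinases holds them in the cytoplasm. Their activity is set mainly through the location and stability of the proteins, which a count of transcripts does not measure. In lung fibroblasts YAP and TAZ are known for their part in the response to stiff matrix, and CTGF is a long-standing marker of fibrosis.

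TEAD factors bind the sequence CATTCC, read as GGAATG on the other strand. RefSeq promoter windows of 300 bases, from 250 before the start of transcription to 50 after it (build GRCm38.p6, the mm10 assembly), matched 5 of the 10 genes, namely Yap1, Wwtr1, Amotl2, Ankrd1 and Cyr61; Tead1, Ctgf, Nov, Wisp1 and Wisp2 had no entry. All 5 held the motif on at least 1 strand, against 14.7% of the 32851 windows in the table and 16.6% of its 27025 genes. Genes of related function held it too, namely 4 of 6 other TEAD and VGLL genes with a window, 7 of 18 Hippo kinases and upstream regulators and 4 of 12 further YAP and TAZ targets. Of SRF and its cofactors 1 of 3 held it, and of the immediate early genes 2 of 12 (16.7%). The windows of the 3 target genes are shown because these genes stand for the YAP and TEAD readout below, each 5′ to 3′ on the coding strand with the motif in capitals. They lie at chr19:36119795-36120094 (minus strand) for Ankrd1, chr3:145649936-145650235 (minus strand) for Cyr61 and chr9:102717554-102717853 (plus strand) for Amotl2.
Ankrd1: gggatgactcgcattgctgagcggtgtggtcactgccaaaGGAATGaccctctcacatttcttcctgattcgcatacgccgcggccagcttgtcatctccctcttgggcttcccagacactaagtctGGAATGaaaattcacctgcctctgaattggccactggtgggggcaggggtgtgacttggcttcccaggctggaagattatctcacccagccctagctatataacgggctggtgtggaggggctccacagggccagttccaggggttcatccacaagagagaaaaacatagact
Cyr61: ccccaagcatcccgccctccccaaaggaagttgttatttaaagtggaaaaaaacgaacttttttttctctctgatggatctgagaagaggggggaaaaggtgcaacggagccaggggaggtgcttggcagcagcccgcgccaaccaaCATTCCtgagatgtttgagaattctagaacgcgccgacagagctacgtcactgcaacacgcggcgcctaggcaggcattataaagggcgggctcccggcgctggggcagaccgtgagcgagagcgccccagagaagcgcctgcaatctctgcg
Amotl2: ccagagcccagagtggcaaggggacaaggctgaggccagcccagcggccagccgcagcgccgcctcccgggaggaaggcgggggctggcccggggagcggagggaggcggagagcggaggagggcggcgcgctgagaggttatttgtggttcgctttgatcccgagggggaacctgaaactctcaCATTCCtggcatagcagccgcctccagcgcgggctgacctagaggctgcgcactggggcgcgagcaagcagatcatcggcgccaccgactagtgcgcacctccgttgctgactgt
The Ankrd1 window held 2 copies, which began 210 and 123 bases upstream of the start. The Cyr61 copy began 103 bases upstream and the Amotl2 copy 65 bases upstream. The motif began 141 bases upstream in the Yap1 window, and 136 and 170 bases upstream of the 2 start sites listed for Wwtr1. The same windows were searched for the AP-1 motif TGANTCA, a palindrome present in 7.81% of all windows, and for the CArG box bound by SRF (1.63% of all windows). Of the 5 genes 0 held either. These matches describe letters in a short window, and binding was not measured.

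The libraries held 19603933 to 29944615 assigned reads. Mrc2 lay between 568.4 and 1027 CPM (counts scaled to library size with edgeR's TMM factors) in the WT libraries and between 205.6 and 282.0 CPM in the Mrc2 KO libraries, so all 10 matched their labels. Fibroblast genes were abundant, with Col1a1 between 5338 and 11650 CPM in WT and between 8974 and 17580 CPM in Mrc2 KO. The 12 fibroblast markers summed to between 19630 and 32130 CPM in WT and between 26320 and 51340 CPM in Mrc2 KO. Of their 12 fold changes 8 were above 1, against 48.4% of all tested genes. Of the 12 markers 5 had an unadjusted edgeR p under 0.05, all higher (7.19% of all tested genes), and DESeq2 called 2, Col3a1 and Fn1, while Vim, Dcn, Lum and S100a4 had lower means in Mrc2 KO. The 6 smooth muscle markers summed to between 3857 and 12930 CPM in WT and between 7277 and 12660 CPM in Mrc2 KO, while 9 epithelial markers summed to between 1.379 and 4.639 CPM and 7 endothelial markers to between 3.268 and 11.1 CPM. Of 11 leukocyte markers the lymphocyte genes Cd3e and Cd79a were near 0, and the list summed to between 2296 and 11370 CPM in WT and between 2746 and 6164 CPM in Mrc2 KO, most of it from Lyz2, a gene of macrophages. The 6 mesothelial markers summed to between 85.04 and 458.7 CPM in WT and between 69.93 and 218 CPM in Mrc2 KO. Fold changes were below 1 for all 6, as they were for 7402 of all 14360 tested genes. The part of these cells in the values below was not tested. In such bulk RNA, fewer cells of a type and less RNA per cell cannot be told apart.

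The means of the YAP and TEAD target genes did not all move alike, though their differences were not tested against each other. Ctgf, Cyr61 and Ankrd1 were at about the same mean level in both genotypes, with means in Mrc2 KO of 98.0%, 94.3% and 97.9% of those in WT. The target gene Amotl2 was at 136% of WT. The regulators and the other CCN genes also had higher means in Mrc2 KO, from 107% of WT for Yap1 to 228% for Nov. In edgeR's quasi-likelihood test 0 of the 10 genes passed an adjusted p of 0.05 over all genes tested, where 0.0139% of all tested genes passed. DESeq2 also called 0 of the 10, against 1.69% of all genes with an adjusted p in either direction and 1.02% higher. Without adjustment 3 of the 10 had an edgeR p under 0.05, namely Amotl2, Tead1 and Nov, all higher in Mrc2 KO, against 7.19% of all tested genes in that direction. Without knockout replicate 5, the library with the lowest length slope (given further on), 5 of the 10 reached such a p, all higher, while 0 passed with adjustment. In that fit 14.7% of all tested genes had such a p and were higher, and 29.5% in either direction. Among the fits with 1 library left out, it called the most genes over the whole table (203). It kept WT replicate 3, whose length slope was nearly as low (-0.153 beside -0.160). For 0 of the 10 genes did the 2 groups lie fully apart, against 2.05% of all genes, 0.961% with Mrc2 KO above and 1.09% with Mrc2 KO below. Log2 fold changes were above 0 for 7 of the 10, against 48.4% of all genes, and their median was 0.33 beside -0.01 over all genes.

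**Figure D1:**
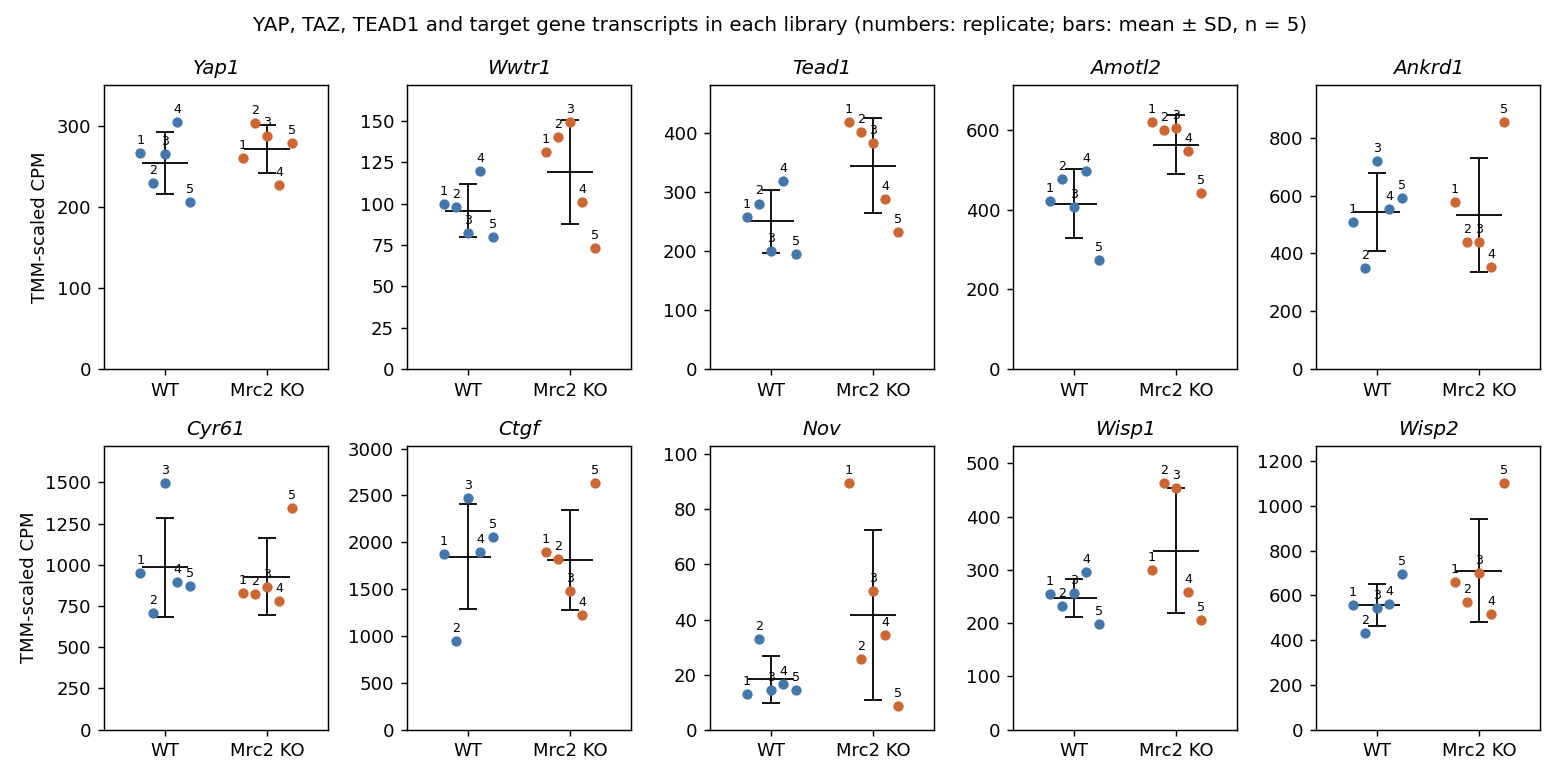
TMM-scaled CPM (vertical axes, from 0) of each of the 10 genes in the 5 WT (blue) and 5 Mrc2 KO (orange) libraries, numbered by replicate, with the mean and SD of each group in black. The groups overlap for every gene, and Mrc2 KO replicate 5 is the highest knockout library for Ankrd1, Cyr61, Ctgf and Wisp2 and the lowest for Wwtr1, Tead1, Amotl2, Nov and Wisp1.

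Among the regulators, Yap1 (ENSMUSG00000053110; mm10 chromosome 9, 7931999 to 8004596, minus strand) varied least relative to its mean over the 10 libraries. It encodes the coactivator YAP, and its transcript was at 254.0 ± 38.15 CPM in WT and 271.2 ± 29.44 CPM in Mrc2 KO (SD, n = 5 each). It was at 266.6, 228.7, 265.0, 304.4 and 205.4 CPM in WT replicates 1 to 5 and at 260.3, 303.0, 287.7, 226.4 and 278.3 CPM in the knockout replicates. All 5 knockout libraries lay inside the WT range. Its log2 fold change was 0.09, with a 95% interval of -0.19 to 0.37 (edgeR adjusted p = 0.738), which runs from 0.879-fold to 1.30-fold. Wwtr1 (ENSMUSG00000027803; chromosome 3, 57455649 to 57575910, minus strand), which encodes TAZ, was at 95.75 ± 16.2 CPM in WT and 118.9 ± 31.37 CPM in Mrc2 KO (SD, n = 5 each). It was at 99.47, 97.92, 82.07, 119.8 and 79.47 CPM in WT replicates 1 to 5 and at 131.2, 140.1, 149.3, 100.7 and 73.32 CPM in the knockout replicates. Replicates 1 to 3 thus lay above every WT library and replicate 5 below every one. For Wwtr1 the log2 fold change was 0.31 (95% interval -0.10 to 0.73, edgeR adjusted p = 0.469).

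Tead1 (ENSMUSG00000055320; chromosome 7, 112679318 to 112906807, plus strand), which encodes the DNA-binding partner, had a larger difference of means than either coactivator, though the 3 differences were not tested against each other. In WT it was at 257.7, 280.6, 200.4, 318.5 and 194.2 CPM, and in Mrc2 KO at 418.9, 402.3, 383.1, 287.9 and 231.8 CPM, for replicates 1 to 5. Knockout replicates 1 to 3 lay above every WT library, while replicates 4 and 5 lay inside the WT range. This gave a log2 fold change of 0.46 (SE 0.19, 95% interval 0.04 to 0.88; unadjusted p = 0.0345, adjusted p = 0.354 by edgeR). The exact two-sided permutation p of Tead1 was 0.0714. Leaving out single libraries moved its log2 fold change between 0.37 (without WT replicate 5) and 0.57 (without knockout replicate 5). The latter had an edgeR adjusted p of 0.0710, in a fit where 1.39% of all tested genes passed. The log2 fold change was 0.22 after the length and GC trend of each library was removed (SE 0.12, edgeR adjusted p = 0.441). The sources used here do not give the strand setting of the counting, and Wwtr1 and Tead1 each overlap a tested gene on the other strand, Gm16016 and 2310014F06Rik. These were counted at 0.433% and 0.626% of the levels of Wwtr1 and Tead1.

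Amotl2 (ENSMUSG00000032531; chromosome 9, 102716672 to 102733418, plus strand) encodes an angiomotin-like protein that binds YAP at cell junctions and holds it out of the nucleus, and it is itself a target of YAP and TEAD. It was at 421.3, 476.9, 405.8, 496.3 and 274.8 CPM in WT replicates 1 to 5 and at 620.8, 601.2, 606.7, 547.5 and 442.1 CPM in the knockout replicates. In 4 of the 5 knockout libraries it lay above the highest WT library, and replicate 5 lay within the WT range. The difference on the log2 scale was 0.44 (SE 0.17, 95% interval 0.08 to 0.80; unadjusted p = 0.0209, adjusted p = 0.344 by edgeR), which is 1.36-fold. Leaving out single libraries gave 0.31 (without WT replicate 5) to 0.51 (without knockout replicate 5). Of the 10 genes Amotl2 had the smallest p in the fit with all libraries. Exact permutation of the genotype labels gave it a two-sided unadjusted p of 0.0238, where 0.00794 is the smallest that 5 against 5 can give.

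Ctgf (ENSMUSG00000019997; chromosome 10, 24595442 to 24598683, plus strand), which encodes connective tissue growth factor, a secreted matricellular protein, was the most abundant of the 10 transcripts. It was at 1872, 945.5, 2469, 1897 and 2051 CPM in WT replicates 1 to 5 and at 1896, 1820, 1482, 1219 and 2635 CPM in the knockout replicates. The lowest of all libraries was WT replicate 2 and the highest knockout replicate 5, and the other 8 were intermixed. On the log2 scale the difference was -0.03 (95% interval -0.60 to 0.54, edgeR adjusted p = 0.965), which runs from 0.660-fold to 1.46-fold. Cyr61 (ENSMUSG00000028195; chromosome 3, 145646976 to 145649981, minus strand), its close relative, which binds integrins and is induced within minutes by serum, was at 949.7, 708.0, 1498, 896.1 and 871.2 CPM in WT and at 829.2, 822.7, 868.1, 778.3 and 1343 CPM in Mrc2 KO. In each group a single library stood high, replicate 3 in WT and replicate 5 in Mrc2 KO. For Cyr61 the log2 fold change was -0.09 (95% interval -0.56 to 0.39, or 0.678-fold to 1.31-fold; edgeR adjusted p = 0.872).

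Ankrd1 (ENSMUSG00000024803; chromosome 19, 36111965 to 36119844, minus strand) encodes an ankyrin repeat protein of the muscle sarcomere and nucleus and is widely read as a YAP target. It was at 507.7, 349.1, 719.8, 553.8 and 593.5 CPM in WT replicates 1 to 5 and at 577.6, 437.9, 441.1, 353.7 and 855.3 CPM in the knockout replicates. Replicate 5 lay above every WT library and the other 4 within their range. Its log2 fold change was -0.03 (95% interval -0.57 to 0.51, or 0.672-fold to 1.43-fold; edgeR adjusted p = 0.960). For Ctgf, Cyr61 and Ankrd1 leaving out 1 library could turn the sign of the difference, with values from -0.20 to 0.10, from -0.26 to 0.11 and from -0.27 to 0.09. The lowest of each came without knockout replicate 5 and the highest without WT replicate 3.

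The other CCN genes had higher means in Mrc2 KO, with overlapping groups. Nov (ENSMUSG00000037362; chromosome 15, 54745702 to 54754039, plus strand), whose product CCN3 often opposes CTGF, was the least abundant, with 170 to 2618 reads per library. It was at 12.84, 33.09, 14.36, 16.71 and 14.27 CPM in WT replicates 1 to 5 and at 89.69, 25.56, 50.21, 34.42 and 8.479 CPM in the knockout replicates. Replicates 1, 3 and 4 of the knockout lay above every WT library and replicate 5 below every one. The fitted log2 fold change was 1.19 (SE 0.50, 95% interval 0.10 to 2.27; unadjusted p = 0.0345, adjusted p = 0.354 by edgeR), and leaving out single libraries moved it between 0.68 (without knockout replicate 1) and 1.51 (without WT replicate 2). An exact two-sided permutation test of Nov gave an unadjusted p of 0.175. Its coefficient of variation was 46.1% in WT and 73.9% in Mrc2 KO, the highest of the 10 genes in both groups.

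Wisp1 (ENSMUSG00000005124; chromosome 15, 66891320 to 66923201, plus strand), a WNT-induced CCN gene linked to fibroblast growth, was at 254.2, 231.3, 256.1, 295.2 and 197.6 CPM in WT and at 300.3, 463.7, 453.3, 258.0 and 205.3 CPM in Mrc2 KO. Knockout replicates 1 to 3 lay above the WT range and replicates 4 and 5 inside it. Wisp1 had a log2 fold change of 0.45 (95% interval -0.04 to 0.93, edgeR adjusted p = 0.400). Wisp2 (ENSMUSG00000027656; chromosome 2, 163820861 to 163833146, plus strand) encodes CCN5, which lacks the carboxy-terminal domain of the other family members. It was at 555.8, 432.3, 545.7, 559.9 and 696.6 CPM in WT and at 658.1, 571.8, 701.3, 519.1 and 1104 CPM in Mrc2 KO, with replicate 5 the highest of all 10 libraries. Its log2 fold change was 0.35 (95% interval -0.10 to 0.80, edgeR adjusted p = 0.455) and 0.13 without knockout replicate 5. The sixth CCN gene, Wisp3, was counted 0 to 5 times per library and was not tested.

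**Figure D2:**
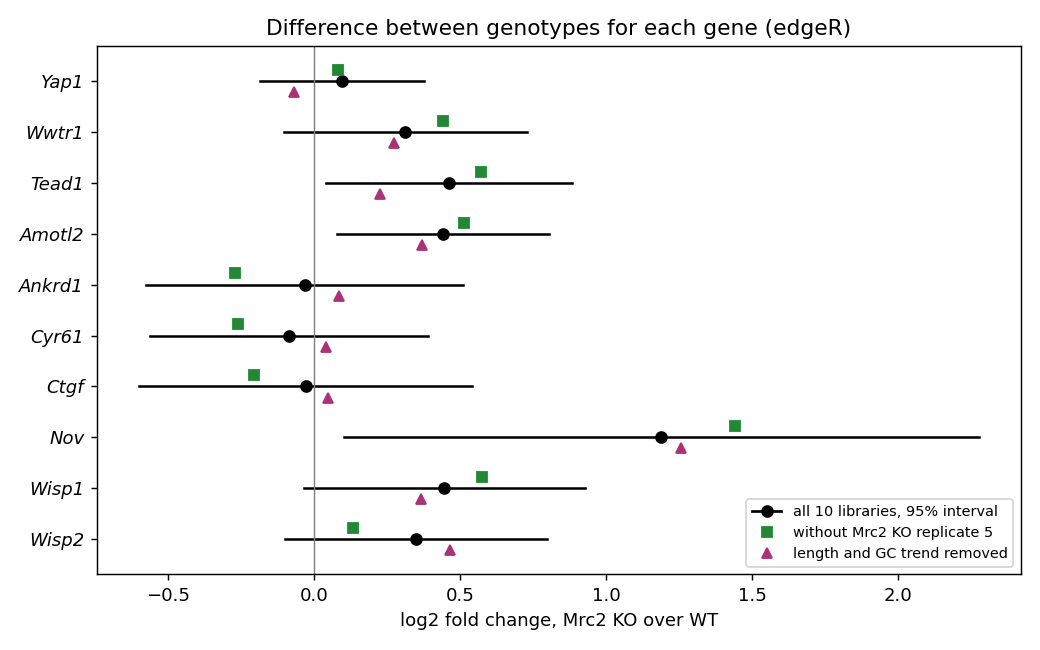
Log2 fold change of Mrc2 KO over WT (horizontal axis) for each of the 10 genes from edgeR, with all 10 libraries (black points with 95% intervals), without Mrc2 KO replicate 5 (green squares) and after removal of each library's length and GC trend (purple triangles). The intervals of Tead1, Amotl2 and Nov lie above 0 before adjustment. The 3 values of each of Yap1, Ankrd1, Cyr61 and Ctgf fall on both sides of 0.

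Levels of different genes were compared as CPM per kilobase of the gene length in the table. Ctgf was highest at 639.1 ± 180.2 CPM per kb (SD, n = 10 libraries of both genotypes), followed by Cyr61 at 473.7 ± 126.7, Wisp2 at 329.7 ± 95.95 and Ankrd1 at 305.3 ± 90.31 CPM per kb. Amotl2 came next at 77.81 ± 17.34 CPM per kb and Wisp1 at 52.38 ± 16.89 CPM per kb. The coactivators and their partner lay close together, with 28.36 ± 3.605 CPM per kb for Yap1, 22.46 ± 5.549 for Wwtr1 and 21.93 ± 6.01 for Tead1, and Nov was lowest at 10.44 ± 8.575 CPM per kb. The ranges over libraries did not overlap between Ankrd1 and Amotl2 or between Wisp1 and Yap1, and overlapped for every other pair of neighbours in this order. Ctgf exceeded Cyr61 in 9 of 10 libraries, and Wwtr1 exceeded Tead1 in 5 of 10.

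In the wider Hippo pathway log2 fold changes lay on either side of 0, and none passed with adjustment. Of 21 Hippo kinases and upstream regulators, all tested, 15 lay above 0 on the log2 scale, against 48.4% of all tested genes. The median of the 21 was 0.17. Adjusted over all genes, 0 passed by edgeR and 0 by DESeq2, and 2 had an unadjusted edgeR p under 0.05, both higher, where 7.19% of all tested genes had such a p and were higher. Without knockout replicate 5 the count was 8, where the share over all genes was 14.7%. After the length and GC trend was removed it was 2 higher and 2 lower, around a median of 0.06. Over all tested genes that fit gave 6.77% higher and 13.1% in either direction. The 2 genes were Lats1, the kinase that phosphorylates YAP (0.41, SE 0.17, edgeR adjusted p = 0.357), and Sav1, the scaffold of the MST kinases (0.63, SE 0.27, edgeR adjusted p = 0.359), which overlaps the tested genes Gm19221 and Atl1. Lats2, the second LATS kinase and itself a YAP target, was at -0.29 (SE 0.15, edgeR adjusted p = 0.410), and Taok1, a kinase upstream of the MST kinases, 0.34 (SE 0.19, edgeR adjusted p = 0.432). By level the list was led by Map4k4, which can act in parallel to the MST kinases, at 56.41 CPM per kb, and Mob1a, a cofactor of the LATS kinases, at 39.32 CPM per kb. Their log2 fold changes were -0.04 and 0.19. Amot, an angiomotin named here after its values were seen, had the lowest value of the list at -0.59 (SE 0.34, edgeR adjusted p = 0.450).

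Of the other TEAD and VGLL genes, which encode further TEAD factors and the Vestigial-like proteins that compete with YAP for them, 5 of 7 were tested, and Vgll1 and Vgll2 were counted at most 6 times in any library. Of the 5, 0 passed by edgeR, with or without adjustment, and 0 by DESeq2. Without knockout replicate 5, 1 had an unadjusted edgeR p under 0.05 and was higher, against 14.7% of all genes. Vgll3 was the most abundant of them at 51.58 CPM per kb and had a log2 fold change of 0.07. Values were 0.25 for Tead3 (SE 0.12, edgeR adjusted p = 0.393), 0.28 for Vgll4 and -0.16 for Tead2. Among SRF and its cofactors Mkl1 and Mkl2, which share many cytoskeletal targets with YAP, 3 of 3 lay above 0, against 48.4% of all tested genes. Of these 3, 0 passed by edgeR, with or without adjustment, or by DESeq2. The values were 0.26 for Srf, 0.02 for Mkl1 and 0.35 for Mkl2. Without knockout replicate 5, 1 of the 3 had an unadjusted edgeR p under 0.05 and was higher (14.7% of all genes). With the length and GC trend removed 1 did so (6.77% of all genes), and 2 lay above 0 (47.1% of all genes).

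Further genes known as YAP and TAZ targets, listed from general knowledge of published signatures, were examined in the same way. Of 18, all tested, 13 lay above 0, against 48.4% of all tested genes, and the median log2 value of the 18 was 0.12. Adjusted over all genes 0 passed by edgeR and 0 by DESeq2, while 2 had an unadjusted edgeR p under 0.05, both higher, against 7.19% of all genes. Without knockout replicate 5 the count was 5, against 14.7% of all genes. After the length and GC trend was removed it was 2 higher and 1 lower. Over all tested genes that fit gave 6.77% higher and 13.1% in either direction. Arhgef17, which encodes a guanine nucleotide exchange factor, was at 186.3 ± 38.95 CPM in WT and 258.3 ± 51.73 CPM in Mrc2 KO (SD, n = 5 each), a log2 difference of 0.47 (SE 0.18, edgeR adjusted p = 0.344). Rbms3, an RNA-binding protein gene that overlaps Gm17396, had a value of 0.50 (SE 0.21, edgeR adjusted p = 0.352), and Crim1, a membrane protein that binds growth factors, 0.36. Nt5e, which encodes the ectonucleotidase CD73 and is named here after its values were seen, had the highest value of the list at 0.66 (SE 0.44, edgeR adjusted p = 0.498). The most abundant members per length were F3, which encodes tissue factor (555.4 CPM per kb, log2 fold change 0.12), and the receptor kinase gene Axl (199.0 CPM per kb, 0.12). Lats2 and Ptpn14 stand in both this list and that of the Hippo kinases.

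Immediate early genes, which serum induces together with Cyr61, mostly had lower means in Mrc2 KO. Of 16, all tested, 12 were below 0 on the log2 scale, as were 7402 of all 14360 tested genes. The median of the 16 was -0.26. Adjusted over all genes 0 passed by edgeR and 0 by DESeq2, while 3 had an unadjusted edgeR p under 0.05, all lower, against 6.1% of all tested genes in that direction. With the length and GC trend of each library removed (described further on), 0 of the 16 had such a p and 6 were above 0. In that fit 13.1% of all tested genes had such a p and 47.1% were above 0. The 3 genes before this removal were all transcription factors. They were Atf3 (-0.54, SE 0.23, edgeR adjusted p = 0.354), Nr4a1 (-0.54, SE 0.24, edgeR adjusted p = 0.363) and Fos (-0.78, SE 0.35, edgeR adjusted p = 0.367). Fos was at 16.94, 16.06, 42.16, 10.77 and 11.27 CPM in WT replicates 1 to 5 and at 8.188 to 14.16 CPM in the knockout. WT replicate 3 was the highest library for Fos, as it was for Cyr61. The list's mean log2 CPM, centred on each gene's mean, was 0.639 in that library. It was -0.104 to 0.093 in the other WT libraries and -0.449 to 0.133 in the knockout. In the fit without WT replicate 3, 4 of the list lay above 0, as with all libraries. Ier2 had a value of -0.82 (SE 0.45). The most abundant per length were Junb, which overlaps the tested gene Prdx2 (61.54 CPM per kb, log2 fold change -0.15), and Ier3 (57.24 CPM per kb, -0.44).

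**Figure D3:**
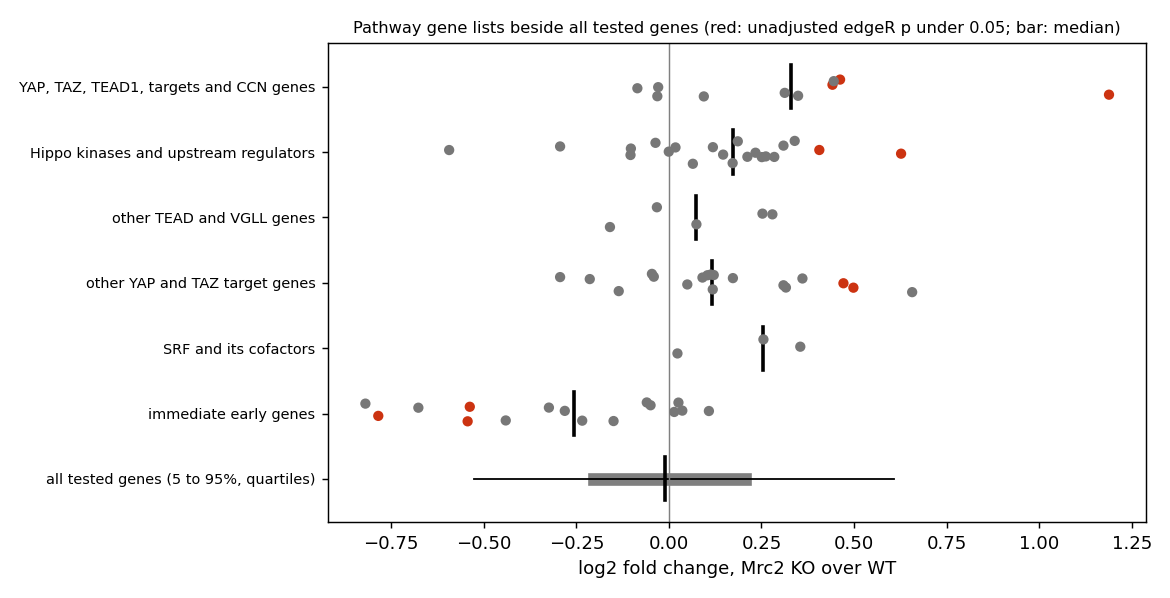
Log2 fold change of Mrc2 KO over WT (horizontal axis) for each tested gene of the 6 lists, with the list median as a black bar and genes with an unadjusted edgeR p under 0.05 in red, above the 5th to 95th percentile and the quartiles of all 14360 tested genes. The median of the 10 genes is 0.33 and that of the immediate early genes -0.26.

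Between cultures of the same genotype 7 of the 10 genes stood in a correlated pair, and these pairs joined Ankrd1 to Ctgf and Cyr61 on the one hand and Wwtr1, Tead1, Amotl2 and Wisp1 on the other. Log2 CPM values were centred within genotype, and all 45 pairs of genes were compared over the 10 libraries, with an exact permutation test that rearranged the libraries within each genotype in 14400 ways and adjustment over the 45 pairs. By Pearson's r 6 pairs passed, all positive, and by Spearman's rho 2. The share of such pairs among the other tested genes was not computed, so these counts do not set the 10 genes apart. Ankrd1 went with Ctgf (r = 0.936, rho = 0.976; exact p = 0.000208 and 0.000278; adjusted p = 0.00469 and 0.0125) and with Cyr61 (r = 0.848, rho = 0.758; exact p = 0.00382 and 0.0203; adjusted p = 0.0286 and 0.130). Without WT replicate 2 and knockout replicate 5, the libraries farthest from the median of Ankrd1, r was 0.893 and 0.562. The second relation rests on those libraries (exact p = 0.0990 without them).

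Tead1 went with Amotl2 (r = 0.836, rho = 0.915; exact p = 0.000139 and 0.00104; adjusted p = 0.00469 and 0.0234). Wwtr1 went with Amotl2 (r = 0.762, rho = 0.782; exact p = 0.000764 and 0.00868; adjusted p = 0.0115 and 0.0781), with Tead1 (r = 0.945, rho = 0.842; exact p = 0.0016 and 0.00562; adjusted p = 0.018 and 0.0633) and with Wisp1 (r = 0.884, rho = 0.782; exact p = 0.00201 and 0.0199; adjusted p = 0.0181 and 0.130). Leaving out the 2 libraries farthest from the first-named gene's median over both genotypes gave r of 0.939, 0.796, 0.969 and 0.879, in the same order. These were WT replicate 5 and knockout replicate 1 for Tead1, and knockout replicates 2 and 3 for Wwtr1. Knockout replicate 5, the lowest knockout library for these genes, stayed in for all 4 pairs. Their r without that library alone was not computed. With 8 libraries, which allow fewer rearrangements, 0 of the 45 pairs passed with adjustment. Of the 21 pairs with r below 0, 0 passed with adjustment; r was -0.618 for Tead1 and Cyr61 (rho = -0.442; exact p = 0.0694 and 0.228; adjusted p = 0.164 and 0.416; r = -0.754 without WT replicate 5 and knockout replicate 1). No pair of Yap1, Nov or Wisp2 passed. For Yap1 the smallest p was with Wisp1 (r = 0.620, rho = 0.806; exact p = 0.0338 and 0.00403; adjusted p = 0.117 and 0.0604). For Wisp2 it was with Ankrd1 (r = 0.847, rho = 0.661; exact p = 0.00854 and 0.065; adjusted p = 0.0549 and 0.237).

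The libraries differed in how counts depended on gene length, and so do the genes of these pairs in their length. Ankrd1, Cyr61 and Ctgf are 1765, 2019 and 2861 bases long in the table, and Wwtr1, Wisp1, Amotl2 and Tead1 4779, 5565, 6289 and 13570 bases. Of the other 3 genes Wisp2 has 1924, Nov 2869 and Yap1 9257 bases, and the median of all tested genes is 4172.5 bases. The slope of log2 CPM on log2 length, over all tested genes after subtracting each gene's mean, was -0.060, 0.088, -0.153, -0.003 and -0.090 in WT replicates 1 to 5 and 0.143, 0.079, 0.098, 0.058 and -0.160 in the knockout replicates. It was above 0 in 4 of 5 knockout and 1 of 5 WT libraries, and the group means of 0.044 ± 0.118 and -0.044 ± 0.0913 (SD, n = 5 each) differed by less than either SD around them (exact permutation p = 0.230, two-sided). WT replicate 3 and knockout replicate 5, the libraries with the lowest slopes, had the highest values of Ctgf, Cyr61 and Ankrd1 in their groups. The smooth muscle markers also summed highest in these libraries of each group, at 12930 and 12660 CPM. How the slope, these markers and the 3 genes relate was not tested.

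Within genotype, 7 of the 10 genes followed this slope by Pearson's r in an exact permutation test adjusted over the 10 genes, and 3 by Spearman's rho. The slope was itself fitted over all tested genes. The share of all tested genes that followed it was not computed, so these counts do not set the 10 genes apart. Values of r were 0.851 for Tead1 (rho = 0.818, adjusted p = 0.0201 and 0.0333), 0.686 for Amotl2 (rho = 0.842, 0.0393 and 0.0333), 0.799 for Wwtr1 (rho = 0.709, 0.0363 and 0.0813) and 0.889 for Nov (rho = 0.818, 0.0181 and 0.0333). They were -0.869 for Cyr61 (rho = -0.661, adjusted p = 0.0266 and 0.0931), -0.786 for Ankrd1 (rho = -0.6, 0.0363 and 0.130) and -0.763 for Ctgf (rho = -0.697, 0.0363 and 0.0860). Nov, with 2869 bases about as long as Ctgf, followed the slope in the opposite direction to Ctgf, and Yap1, with 9257 bases, had an r of -0.0606 (rho = 0.115, adjusted p = 0.863 and 0.775). Without WT replicate 3 and knockout replicate 5, r was 0.666 for Tead1, 0.722 for Amotl2, 0.424 for Wwtr1, 0.823 for Nov, -0.639 for Cyr61, -0.350 for Ankrd1 and -0.576 for Ctgf. The relations of Wwtr1 and Ankrd1 thus rest in large part on those libraries.

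**Figure D4:**
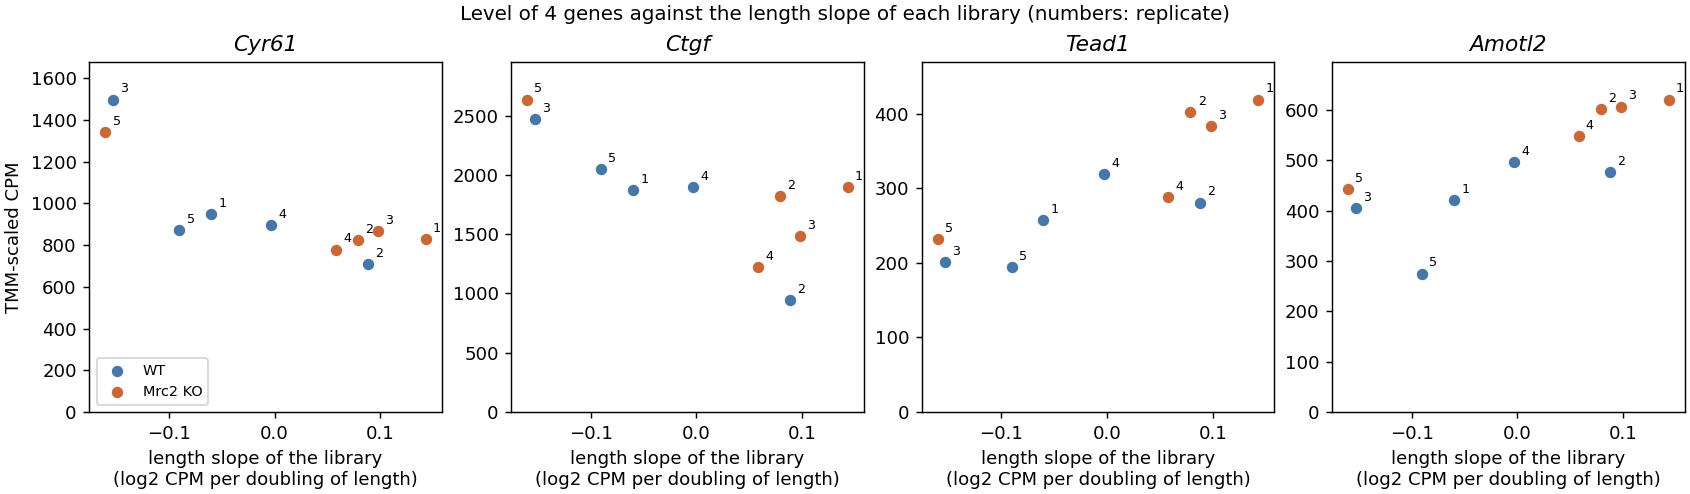
TMM-scaled CPM of Cyr61, Ctgf, Tead1 and Amotl2 (vertical axes, from 0) against the length slope of each library (horizontal axis, log2 CPM per doubling of gene length), with WT in blue, Mrc2 KO in orange and replicate numbers beside the points. The libraries with the lowest slopes, WT replicate 3 and Mrc2 KO replicate 5, are highest for Cyr61 and Ctgf.

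When each library's trend with length and GC content was removed, a step chosen after the data had been seen, 1 of the 45 pairs passed. This was Ankrd1 with Ctgf (r = 0.904, exact permutation p = 0.000278, adjusted p = 0.0125). For Tead1 and Cyr61 r was 0.103 in place of -0.618, while r was 0.796 for Wwtr1 with Tead1, 0.859 for Wwtr1 with Wisp1 and 0.721 for Tead1 with Amotl2. Yap1 then had r of 0.776 with Cyr61 and 0.745 with Ctgf (exact permutation p = 0.00826 and 0.0119, adjusted p = 0.0738 for both). The genotype differences also moved: the log2 fold change of Tead1 was 0.22 in place of 0.46 and that of Yap1 -0.07, while those of Amotl2 (0.37), Nov (1.26), Wisp1 (0.37) and Wisp2 (0.46) kept their sign. Ctgf, Cyr61 and Ankrd1 were at 0.05, 0.04 and 0.09. In this fit 9 of the 10 lay above 0, against 47.1% of all genes. By edgeR 0 of the 10 passed (0.00696% of all genes), and 3, here Amotl2, Nov and Wisp2, had an unadjusted p below 0.05, all higher, against 6.77% of all genes in that direction.

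**Figure D5:**
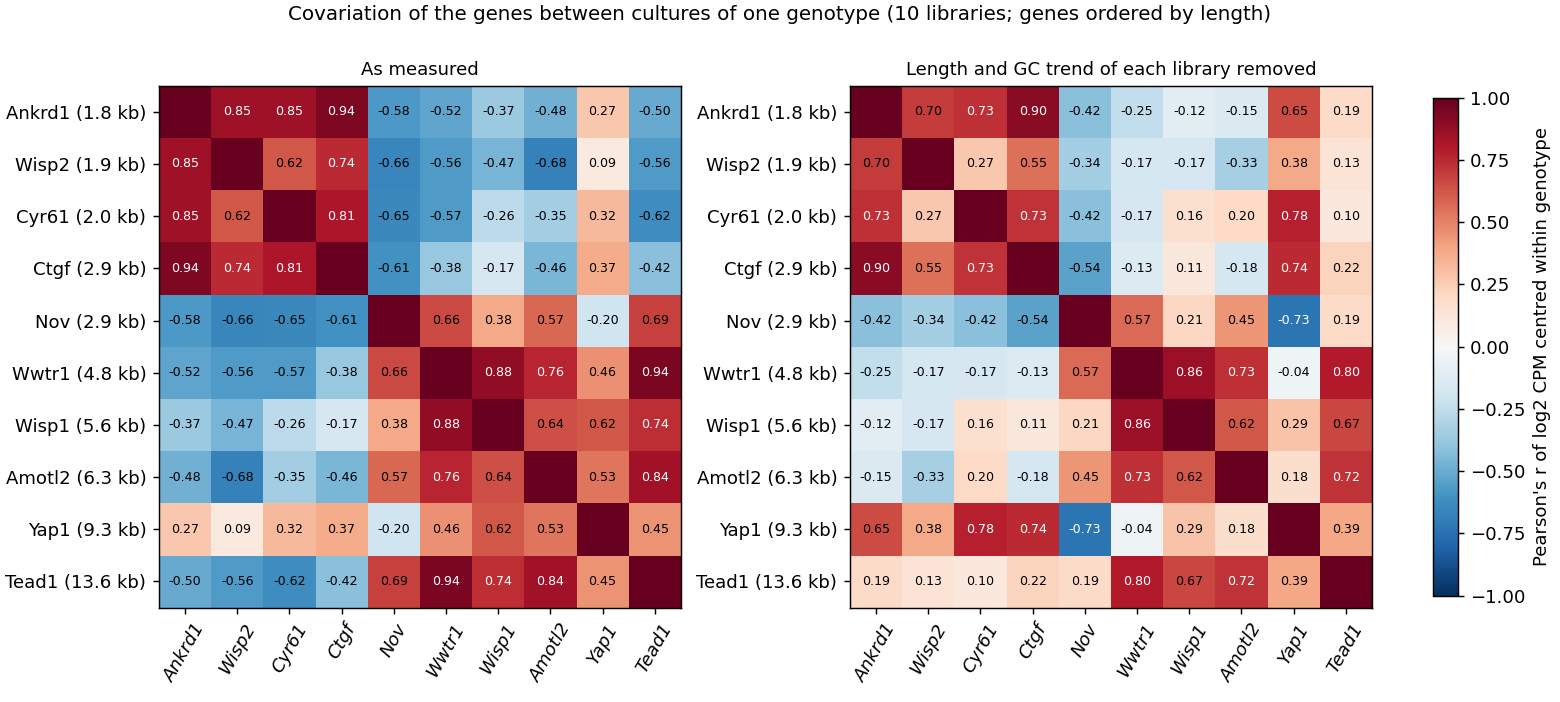
Pearson's r of log2 CPM centred within genotype for each pair of the 10 genes over 10 libraries, with genes ordered by length, as measured (left) and after removal of each library's length and GC trend (right); red is positive and blue negative. Ankrd1 with Ctgf is at 0.94 on the left and 0.90 on the right, and Tead1 with Cyr61 at -0.62 on the left and 0.10 on the right.

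Outside the 10 genes, the transcripts whose log2 CPM over all 10 libraries was most like that of a target gene were named for 3 of them. Ankrd1 was most like Cfap300 (Pearson's r = 0.965), Ifi27 (0.963) and 1810037I17Rik (0.958). Ctgf was most like Cfap300 (0.960), Ptges3l (0.953) and 1810037I17Rik (0.947). Cyr61 was most like Mpc2 (0.987), Exosc3 (0.977) and Msrb1 (0.974). These are the highest of 14360 values over 10 libraries and carry no test. Lengths of these genes in the table were 1160 to 2108 bases, apart from Mpc2 with 7344 bases.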

How the data were processed

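Poly(A)-selected RNA was sequenced on an Illumina NovaSeq, per the labels' protocols. The deposited file holds raw read counts per Ensembl gene, without normalization; mm10, STAR 2.5, HTSeq 0.6.1 and DESeq2 2 appear, without roles, in the submitters' processing notes. The annotation release and strand setting were not given in any source used here. Genotypes and replicate numbers came from the titles and columns from the library names. The 10 genes, the lists and most tests were chosen with earlier results of these data known.

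Genes were filtered with filterByExpr, which kept 14360 of 28582 genes with a count. Genotypes were compared with edgeR 4.0.16 (R 4.3.3; quasi-likelihood F test) with TMM scaling and no covariate, Benjamini-Hochberg adjusted over all tested genes, with a threshold of 0.05. Standard errors are the absolute log2 fold change over the square root of F, and 95% intervals use the test's degrees of freedom. TMM library sizes entered CPM, and a prior count of 2 was used for log2 CPM. The code was tested on simulated data. No pair of libraries agreed within sampling noise (lowest chi-square per degree of freedom 17.5). A count of 3 was worth 0.0971 to 0.161 CPM, a floor for counting error only.

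Named were the 10 genes, Mrc2, Wisp3, in each pathway list the 4 genes of smallest p and the 2 of highest level per length, and the 3 genes most correlated with each of Ankrd1, Cyr61 and Ctgf. Permutation tests were exact and two-sided (scipy 1.17.1). Alternatives were DESeq2 1.42.0, limma-voom (limma 3.58.1), other scalings, other filters on low counts, a replicate block and leaving out each library; removal of a spline trend in gene length and GC content per library was added after seeing the data (GC from GENCODE M21 transcripts, for 99.96% of tested genes). Promoter sequences are from RefSeq (GRCm38.p6), matched by symbol or synonym.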

Additional observations from a re-analysis of the deposited data

Results flagged for a closer look

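Cyr61 in Mrc2 KO replicate 5 was at 1343 CPM, far above the other 4 knockout libraries, which lay between 778.3 and 868.1 CPM; the gap took up more of the group's range than the critical value of 0.71 for 5 samples allows. Nov in WT replicate 2 was at 33.09 CPM, against 12.84 to 16.71 CPM in the other WT libraries, by the same measure. About 1 in 20 groups is expected to be picked out in this way by chance, and 20 groups were looked at.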

How the results depend on the processing

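Of 180 values of the 10 genes under 18 alternatives, 167 kept their sign and stayed short of an adjusted p of 0.05, 0 passed it and 13 changed sign, all of them for genes close to 0. With the length and GC trend removed the log2 fold changes were -0.069 for Yap1, 0.086 for Ankrd1, 0.040 for Cyr61 and 0.048 for Ctgf, and the cause of the changed signs was not tested. Leaving out single libraries gave -0.270 to 0.088 for Ankrd1, -0.26 to 0.11 for Cyr61 and -0.20 to 0.10 for Ctgf. The count of called genes over the whole table was 2 in the test reported, 243 with DESeq2, 1 with limma-voom, 1 with the length and GC trend removed and 1 to 203 with single libraries left out, the highest without knockout replicate 5. With a replicate block it was 0 (Mrc2 at -1.78, edgeR adjusted p = 0.0542). Same-numbered libraries showed no common deviation throughout (r from -0.236 to 0.376, and 1 of 5 WT libraries matched its own number best). The numbers were therefore not used as pairs, though a pairing was not tested. Correlated pairs numbered 6 by Pearson's r, 2 by Spearman's rho, 0 with the 2 farthest libraries left out and 1 with the length and GC trend removed. Other scalings moved the median log2 fold change of all genes by at most 0.02. The lowest count of any of the 10 genes in any library was 170 (Nov), and 5 cultures a group limit the precision.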
